A study of Mus musculus with 6 samples.

Results

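Primitive endoderm is the extraembryonic layer that separates from the epiblast in the blastocyst and later forms the visceral and parietal endoderm of the yolk sacs. Its cells are specified by FGF signalling through ERK, which favours Gata6 over Nanog in the inner cell mass. The factors Gata4, Sox17 and Sox7 and the receptor gene Pdgfra follow, and the maturing layer lays down basement membrane and takes up proteins by endocytosis. Mouse embryonic stem cells can give rise to such cells in culture, so low levels of these genes are often read in stem cell lines.

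The 9 genes described here are Gata4, Gata6, Sox17, Sox7, Pdgfra, Dab2, Foxa2, Amn and Thbd, found by name among 54532 genes of the deposited table. They are compared between p53-deficient and WT haploid mouse embryonic stem cells, 3 libraries each, all of strain 129SV. Haploid stem cells carry a single chromosome set, and p53, encoded by Trp53, is the transcription factor that halts or kills cells after damage. The titles call the first group P53ki, the genotype field writes it as lacking P53, and the design text calls it a knockout. The WT titles carry the tag T3-1, which the labels do not explain and the P53ki titles lack. Passage and culture medium are not given in the sources used here, so effects of p53 loss and differences between lines or cultures cannot be told apart.

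Levels are given as FPKM, a fragment count scaled to gene length and library size. Reads in listed genes, rebuilt from the FPKM, numbered 11536412 to 21218976 in p53-deficient libraries and 17065841 to 20331905 in WT libraries. Trp53 had 9.71, 9.71 and 9.98 FPKM in the p53-deficient libraries, against 64.5, 69.8 and 69.6 FPKM in the WT libraries, so its transcript was lower but present. Pou5f1 (Oct4), a core pluripotency factor, was high in both groups, with 407 ± 15.5 FPKM in p53-deficient cells and 371 ± 4.43 FPKM in WT cells (SD, n = 3 each). This transcript does not show the number of chromosome sets or the purity of the cells. Fibroblast and Y-linked transcripts, given below, differed between the groups. The 9 genes were low beside Pou5f1. None reached 4 FPKM in any library. The visceral endoderm genes Cubn and Ttr averaged 0.0351 and 0.0130 FPKM in p53-deficient cells and 0.0684 and 0.0424 FPKM in WT cells, near 0 in both groups. Other genes listed below for visceral and parietal endoderm were well above 0. Apoe, for example, had 199 FPKM in p53-deficient and 201 FPKM in WT cells, while 25 of the 50 listed averaged under 0.5 FPKM. The labels do not say that replicates were separate cultures, and p-values then measure only the spread between these libraries.

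Start regions of 3 of the genes are shown first, out of 4 members for which one was matched. Amn was the tested gene with the higher level in p53-deficient cells, while Dab2 and Pdgfra were lower. The sequences are RefSeq's for build GRCm38.p6, from 250 bases before to 50 bases after the annotated start, on the plus strand, which is the strand of all 3 genes. Capitals mark matches, on either strand, to the motifs given below.
Amn, chr12:111270846-111271145: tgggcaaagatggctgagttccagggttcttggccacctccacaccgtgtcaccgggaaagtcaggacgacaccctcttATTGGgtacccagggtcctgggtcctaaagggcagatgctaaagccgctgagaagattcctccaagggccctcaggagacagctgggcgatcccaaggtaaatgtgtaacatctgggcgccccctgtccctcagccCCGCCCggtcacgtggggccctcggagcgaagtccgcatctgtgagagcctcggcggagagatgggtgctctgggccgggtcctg
Dab2, chr15:6299539-6299838: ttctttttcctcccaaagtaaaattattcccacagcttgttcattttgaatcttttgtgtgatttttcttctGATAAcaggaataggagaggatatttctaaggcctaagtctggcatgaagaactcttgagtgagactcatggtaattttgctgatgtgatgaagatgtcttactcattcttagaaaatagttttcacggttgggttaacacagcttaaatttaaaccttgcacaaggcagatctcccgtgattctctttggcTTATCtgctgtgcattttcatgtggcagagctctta
Pdgfra, chr5:75152001-75152300: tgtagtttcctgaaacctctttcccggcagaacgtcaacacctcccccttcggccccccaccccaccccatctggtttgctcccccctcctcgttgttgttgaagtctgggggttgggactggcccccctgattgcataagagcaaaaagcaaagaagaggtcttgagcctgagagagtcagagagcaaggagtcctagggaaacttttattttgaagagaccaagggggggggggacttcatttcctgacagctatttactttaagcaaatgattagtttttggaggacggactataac

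The motifs searched were the GATA core GATAA, the SOX core AACAAT, the TATA box TATAAA, the CCAAT box, the GC box GGGCGG and the p53 half-site, each on both strands. The Dab2 window held 2 GATA cores, at bases -178 to -174 on the plus strand and 15 to 19 on the minus strand, counted from the start. Of 32851 start regions of this length, 25.4% held a GATA core. A further RefSeq start inside Dab2 held no match to any of the 6 motifs. The Amn window held 1 CCAAT box (in 37.4% of all regions) and 1 GC box (35.7%), and the Pdgfra window held no match. The SOX core was in 10.7% of all regions, the TATA box in 13.6% and the p53 half-site in 8.36%. The windows also differed in base composition: Amn had 62.3% G and C, Pdgfra 51.0% and Dab2 37.7% at the start shown and 59.3% at its further start, against a median of 52.7% over all regions.

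Across the members, the receptor, adaptor and surface genes Pdgfra, Dab2 and Thbd and the factor gene Gata6 were lower in p53-deficient cells, and Amn was higher. Of the 9 genes, 5 had a mean of at least 0.5 FPKM and were tested (limma on log2(FPKM + 1), Benjamini-Hochberg adjustment over 15144 genes). At an adjusted p under 0.05 all 5 were called, where 66.5% of all tested genes were. Of these, 4 were lower, where 31.3% of all tested genes were, and 1 was higher, where 35.3% of all tested genes were. Gata6, at a mean of 0.572 FPKM over all libraries, lay just above the filter and Sox7, at 0.473 FPKM, just below it. Thbd, Pdgfra and Gata6 passed the filter only through their WT level and so had to differ, which makes the count a description. Over all 9 genes, the groups did not overlap in 7, with 5 lower and 2 higher in p53-deficient cells. Among all 32870 genes with a read, 23.1% lay wholly lower and 21.3% wholly higher. Among the 15144 tested genes these shares were 33.7% and 37.7%.

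**Figure D1:**
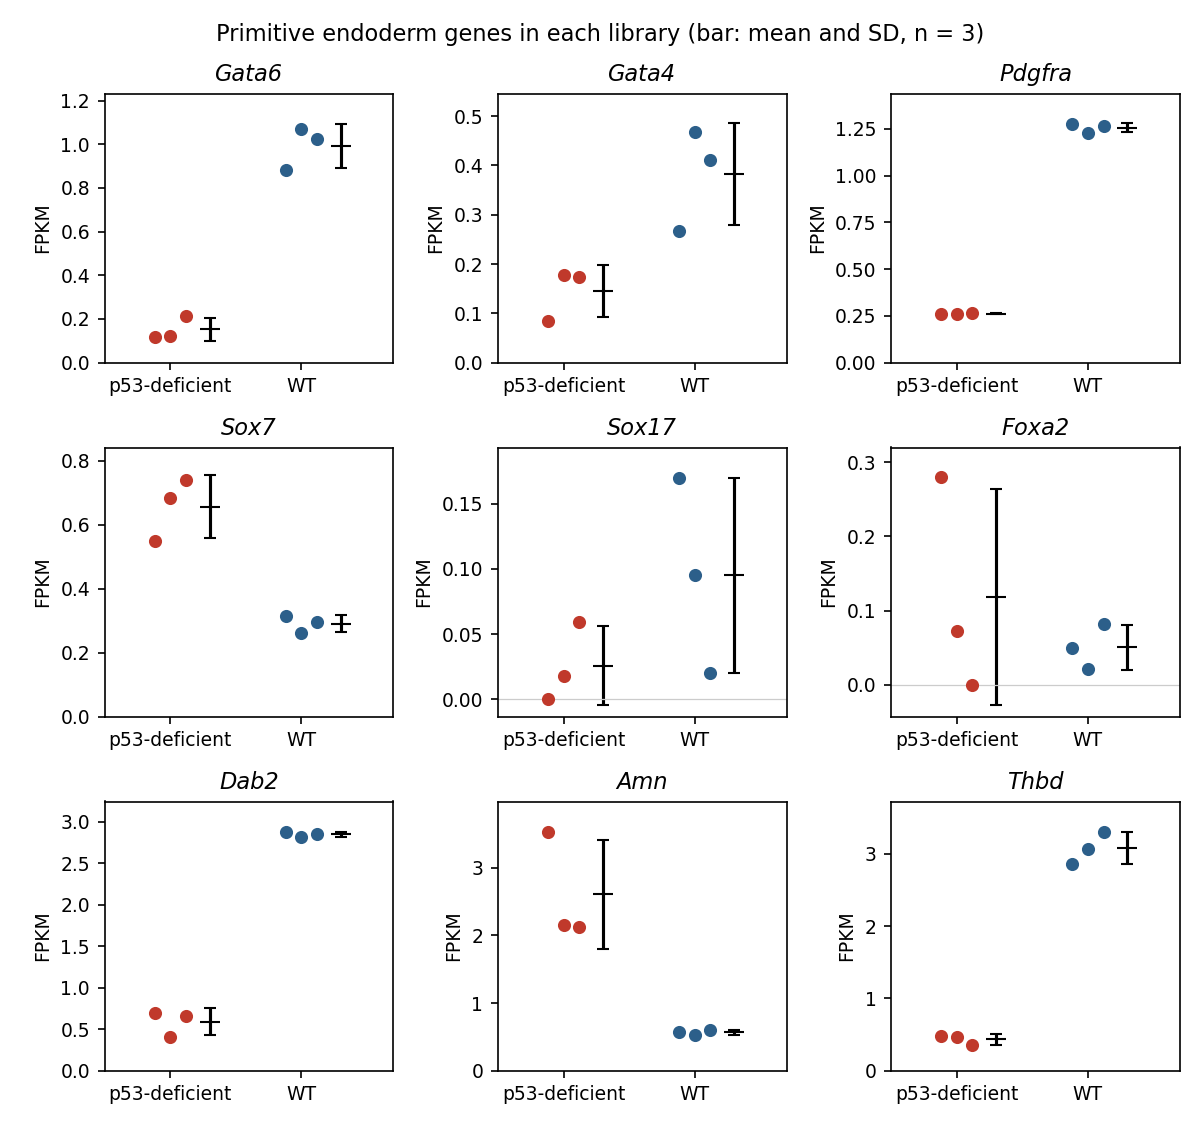
FPKM of each of the 9 genes in the 3 p53-deficient libraries (left, red) and the 3 WT libraries (right, blue), with the group mean and SD as a black bar and a separate vertical scale for each gene. Thbd, Dab2, Pdgfra, Gata6 and Gata4 are lower and Amn and Sox7 higher in every p53-deficient library, while Sox17 and Foxa2 overlap.

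Gata6 encodes the zinc-finger factor that starts the primitive endoderm programme. It lies on chromosome 18 (mm10, 11052508 to 11085635, plus strand; ENSMUSG00000005836). It had 0.119, 0.124 and 0.213 FPKM in the p53-deficient libraries, against 0.881, 1.07 and 1.03 FPKM in the WT libraries. These values rest on 14, 8 and 21 reads in p53-deficient libraries and on 85, 118 and 118 reads in WT libraries. Every p53-deficient library lay far under the lowest WT library. The log2 fold change was -0.79 with SE 0.0807 (limma adjusted p = 0.000167). The added 1 in log2(FPKM + 1) shrinks changes of low genes, and voom, limma's weighted test for log2 read counts, gave -2.73 on the rebuilt reads with SE 0.280 (adjusted p = 9.41e-09).

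Gata4, a related zinc-finger factor gene that acts after Gata6, lies on chromosome 14 (63198922 to 63271692, minus strand; ENSMUSG00000021944). It had 0.0852, 0.177 and 0.174 FPKM in p53-deficient libraries, against 0.267, 0.468 and 0.411 FPKM in WT libraries. The groups did not overlap, and both were under the filter. Without a filter its log2 fold change was -0.27 with SE 0.0722 (limma adjusted p = 0.0314), where 17.5% of 32870 genes were lower. In voom over the 22385 genes with at least 10 reads, of which 57.9% were called in either direction, it was -1.50 with SE 0.377 (adjusted p = 0.00125), where 30.3% were lower. The 27 reads in p53-deficient and 87 in WT libraries gave a depth-adjusted ratio of 0.356 with a 95% exact binomial interval of 0.222 to 0.553. This interval, like those below, covers counting error only.

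Pdgfra encodes the alpha receptor for platelet-derived growth factor, an early surface mark of primitive endoderm that many mesenchymal cells also carry. It lies on chromosome 5 (75152292 to 75198215, plus strand; ENSMUSG00000029231). It had 0.261, 0.259 and 0.266 FPKM in p53-deficient libraries, against 1.28, 1.23 and 1.26 FPKM in WT libraries. Replicates were nearly alike in both groups, and the p53-deficient mean was 0.208 of the WT mean. The log2 fold change was -0.84 with SE 0.0638 (limma adjusted p = 4.17e-05), and voom gave -2.27 with SE 0.152. Annotated genes on the opposite strand cover 4.55% and 1.66% of its exon length, and they averaged 0 and 0.0210 FPKM over the 6 libraries.

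The SOXF factor genes Sox7 and Sox17, which encode HMG-box proteins of endoderm and blood vessels, were both under the filter. Sox7 was higher in every p53-deficient library, while the Sox17 values of the groups overlapped. Sox7 (chromosome 14, 63943673 to 63950732, plus strand; ENSMUSG00000063060) had 0.548, 0.682 and 0.739 FPKM in p53-deficient libraries, against 0.316, 0.261 and 0.294 FPKM in WT libraries. Each p53-deficient library was above each WT library. Without a filter the log2 fold change was 0.36 with SE 0.0707 (limma adjusted p = 0.00945), where 17% of genes were higher. Voom over genes of at least 10 reads gave 1.11 with SE 0.270 (adjusted p = 0.000947), where 27.6% were higher. Gata4 lies on the same chromosome and had values in the opposite direction.

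Sox17 (chromosome 1, 4490931 to 4497354, minus strand; ENSMUSG00000025902) had 0, 1 and 5 reads in the p53-deficient libraries and 14, 9 and 2 reads in the WT libraries. A count of 0 in the first p53-deficient library allows up to 0.0299 FPKM (3 reads). The groups overlapped, and neither limma without a filter (adjusted p = 0.270) nor voom (adjusted p = 0.0643) called it. Pooled reads gave a ratio of 0.275 with an interval of 0.0923 to 0.687. The ratio of mean FPKM, 0.271, was 0.0951 without p53-deficient replicate 3, 0.407 without p53-deficient replicate 1 and 0.445 without WT replicate 1. One transcript on the opposite strand shares 16.9% of the Sox17 exon length and was listed at 0 FPKM in all libraries.

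Foxa2 encodes a forkhead factor of visceral and definitive endoderm and lies on chromosome 2 (148042877 to 148046969, minus strand; ENSMUSG00000037025). It had 14, 2 and 0 reads in p53-deficient libraries and 2, 1 and 4 reads in WT libraries. A single library held nearly all its p53-deficient reads. The p53-deficient mean was 0.118 FPKM with all libraries and 0.0365 FPKM without p53-deficient replicate 1, against 0.0507 FPKM in WT, so the direction rests on that library. Neither limma without a filter (adjusted p = 0.542) nor voom (adjusted p = 0.787) called it.

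Dab2 encodes disabled-2, a clathrin adaptor that carries endocytic receptors and is made in visceral endoderm. It lies on chromosome 15 (6299788 to 6440712, plus strand; ENSMUSG00000022150). It had 0.699, 0.401 and 0.664 FPKM in p53-deficient libraries, against 2.88, 2.82 and 2.85 FPKM in WT libraries. The WT libraries were tight, while p53-deficient replicate 2, the shallowest library, lay lowest with 34 reads. The log2 fold change was -1.28 with SE 0.0868 (limma adjusted p = 2.47e-05), and voom gave -2.25 with SE 0.140.

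Amn encodes amnionless, the membrane partner of cubilin in the endocytic receptor of visceral endoderm. It lies on chromosome 12 (111271095 to 111276426, plus strand; ENSMUSG00000021278). It had 3.53, 2.16 and 2.12 FPKM in p53-deficient libraries, against 0.566, 0.523 and 0.606 FPKM in WT libraries. The lowest p53-deficient library was well above the highest WT library, and p53-deficient replicate 1 stood above the other two. The log2 fold change was 1.18 with SE 0.150 (limma adjusted p = 0.000473), and voom gave 2.18 with SE 0.282. Pooled reads numbered 252 in p53-deficient and 60 in WT libraries, a ratio of 4.81 with an interval of 3.62 to 6.49. No annotated gene overlaps its exons.

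Thbd encodes thrombomodulin, a receptor that binds thrombin and turns it to the activation of protein C, and is made by parietal endoderm and by blood vessels. Its single exon lies on chromosome 2 (148404466 to 148408188, minus strand; ENSMUSG00000074743). It had 0.485, 0.465 and 0.350 FPKM in p53-deficient libraries, against 2.86, 3.07 and 3.30 FPKM in WT libraries. The p53-deficient mean was 0.141 of the WT mean. The log2 fold change was -1.51 with SE 0.0716 (limma adjusted p = 5.19e-06), and voom gave -2.85 with SE 0.201. For 1 gene in 3 libraries a group, the smallest p of an exact permutation test is 0.1. Each call therefore rests on limma's model of the spread, in which variance is shared across genes.

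**Figure D2:**
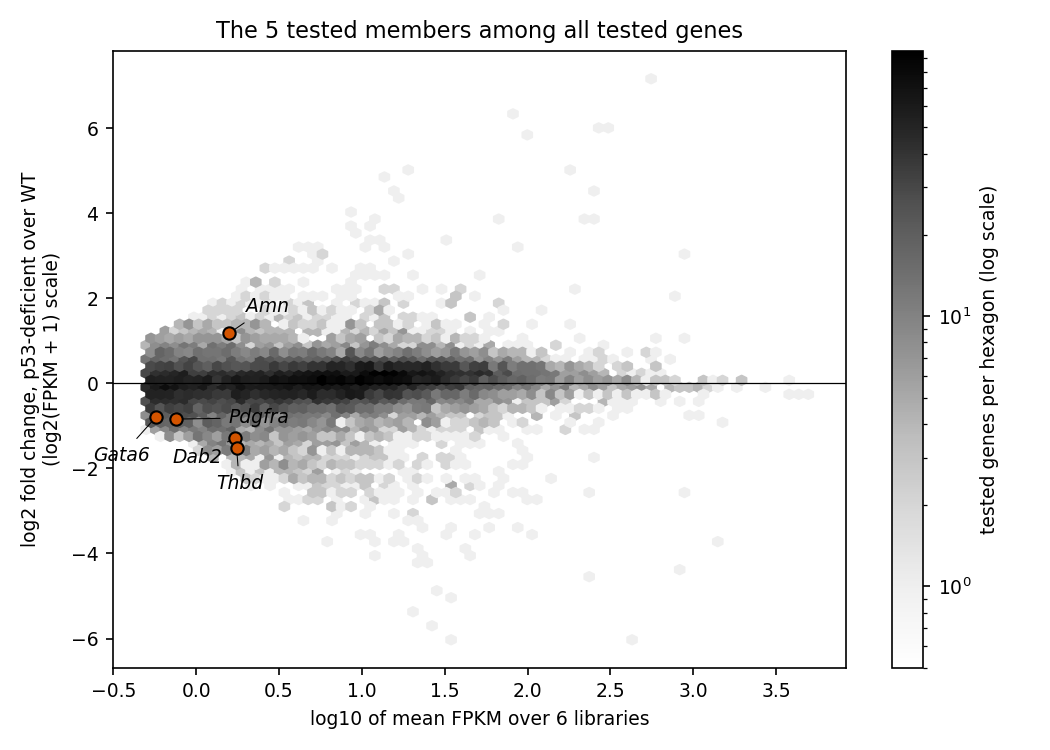
Log2 fold change (p53-deficient over WT, log2(FPKM + 1) scale) against the log10 of mean FPKM for 15144 tested genes, shaded by the number of genes per hexagon, with the 5 tested members in orange. Thbd at -1.51, Dab2 at -1.28, Pdgfra at -0.84 and Gata6 at -0.79 lie below 0 and Amn at 1.18 above it, all at the low end of expression.

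The order of levels, which FPKM allows between genes, differed between the groups. In p53-deficient cells Amn was highest at 2.61 ± 0.804 FPKM, followed by Sox7 at 0.656 ± 0.0982 FPKM, Dab2, Thbd, Pdgfra, Gata6, Gata4, Foxa2 and Sox17. There, Sox7 and Dab2, Dab2 and Thbd, and each neighbouring pair from Gata6 down to Sox17 differed by less than their summed SD. In WT cells Thbd at 3.08 ± 0.219 FPKM and Dab2 at 2.85 ± 0.0299 FPKM came first and were within their summed SD, followed by Pdgfra, Gata6, Amn, Gata4, Sox7, Sox17 and Foxa2 (SD, n = 3 each). Among these, Gata4 and Sox7, and Sox17 and Foxa2, were within their summed SD. The summed FPKM of the 9 genes was 4.36 to 6.01 in p53-deficient libraries and 9.27 to 9.86 in WT libraries.

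Markers of fibroblasts, which can serve as feeder layers for mouse embryonic stem cells, moved with Thbd, Dab2, Pdgfra, Gata6 and Gata4. All 22 listed markers were lower in every p53-deficient library than in any WT library, and all 19 tested ones were called lower. Among all genes with a read 23.1% lay wholly lower, and 31.3% of all tested genes were called lower. Of the tested markers, Twist2 passed the filter only through its WT level and so had to differ. The summed level of the 22 markers was 124 to 131 FPKM in p53-deficient libraries and 853 to 869 FPKM in WT libraries, and none was at 0 throughout. The p53-deficient mean was a median 0.158 of the WT mean over the 22 markers, with a range from 0.0785 to 0.444. The ratios of Thbd (0.141), Gata6 (0.153), Dab2 (0.206), Pdgfra (0.208) and Gata4 (0.381) lay within that range, and those of Sox7 (2.26) and Amn (4.61) above it. Col1a1, the gene of a type I collagen chain, had 30.9 ± 0.860 FPKM in p53-deficient cells and 210.0 ± 4.45 FPKM in WT cells, and Thy1, a surface protein gene, had 5.49 ± 0.575 FPKM in p53-deficient cells and 17.5 ± 0.576 FPKM in WT cells (SD, n = 3 each). Reads of the Y-linked genes Ddx3y, Eif2s3y, Kdm5d and Uty numbered 103 in p53-deficient and 1161 in WT libraries, which after depth is a ratio of 0.102 with an interval of 0.0823 to 0.124. The part of fibroblasts or of male cells in the lower levels of the 5 genes was not tested. In such bulk RNA, fewer cells of a type and less RNA per cell cannot be told apart.

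Other cell types moved less uniformly. Their counts are to be read against the 35.3% of all tested genes that were higher and the 31.3% that were lower. Of 10 endothelial markers, 4 were tested, with Pecam1 and Tek lower and Kdr and Esam higher. Tek passed the filter only through its WT level and Kdr only through its p53-deficient level, so both had to differ. The sum of the 10 markers was 15.0 to 15.8 FPKM in p53-deficient and 27.8 to 28.4 FPKM in WT libraries. Pecam1, which stem cells also express, made up most of this with 11.5 FPKM in p53-deficient cells and 24.0 FPKM in WT cells. Cdh5, the cadherin that defines endothelium, averaged 0.0241 FPKM in p53-deficient cells and 0.0368 FPKM in WT cells, and Emcn was listed at 0 in every p53-deficient library. Of 8 definitive endoderm markers, 2 were higher, 2 lower and 4 under the filter. Their sum, 82.6 to 98.8 FPKM in p53-deficient and at most 23.7 FPKM in WT libraries, was mostly Trh, the thyrotropin-releasing hormone gene. Of 9 trophoblast markers, 3 were higher and 1 lower, and their sums were 32.4 to 34.8 FPKM in p53-deficient and 29.5 to 30.4 FPKM in WT libraries. Of 12 embryonic stem cell markers, 6 were higher and 5 lower, or 4 and 6 with median scaling (libraries shifted so that the median log2 ratio of well expressed genes is 0), and their sums were 2635 to 2709 FPKM in p53-deficient and 3593 to 3665 FPKM in WT libraries. Most of that sum's difference lay in Dppa5a, a germ and stem cell gene, with 1075 ± 35.1 FPKM in p53-deficient cells and 2007 ± 30.0 FPKM in WT cells (SD, n = 3 each).

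**Figure D3:**
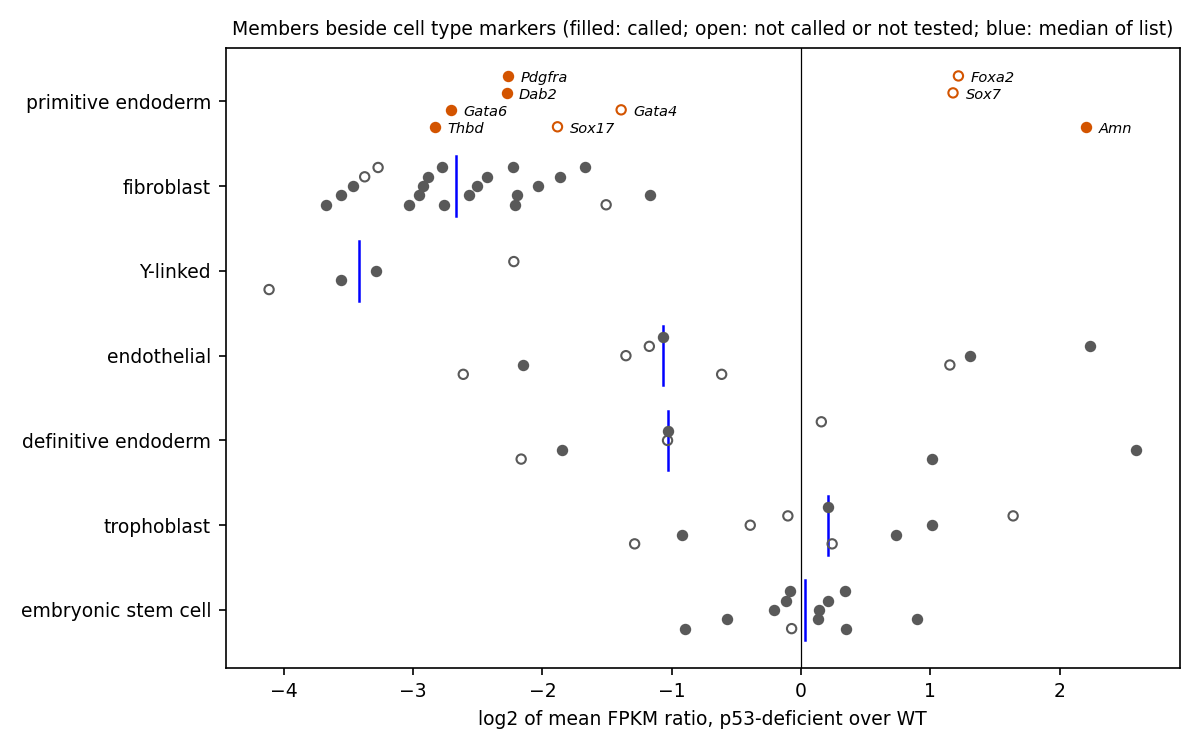
Log2 of the p53-deficient over WT ratio of mean FPKM for the 9 genes (orange) and for 6 marker lists (grey; 5 cell types and Y-linked genes), with filled points for called genes, open points for genes not called or not tested, and a blue line at each marker list's median; genes at 0 in a whole group are not drawn. Thbd, Gata6, Dab2, Pdgfra, Sox17 and Gata4 fall within the range of the fibroblast markers, whereas Sox7, Foxa2 and Amn lie above 0.

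Genes of 7 related lists are given by their counts, to be read against the 35.3% of all tested genes that were higher and the 31.3% that were lower. Among signals that set the balance between epiblast and primitive endoderm, of 28 such genes 26 were tested, 10 higher and 13 lower in p53-deficient cells, or 7 and 14 with median scaling and 7 and 13 after quantile normalization. Their median log2 fold change was -0.09, beside 0.03 over all tested genes. Bmp4, a signalling ligand, rose by 3.25, and the ERK feedback genes Spry4, Dusp6 and Spry2 rose by 3.18, 1.63 and 1.29 on the log2(FPKM + 1) scale. The ligand gene Fgf4 had a log2 fold change of -0.15, and the receptor gene Fgfr2 had -0.37. The receptor gene Fgfr1 had 10.5 FPKM in p53-deficient cells and 22.1 FPKM in WT cells. Nanog, which opposes Gata6, was lower too, with 221 ± 6.09 FPKM in p53-deficient cells and 330 ± 0.879 FPKM in WT cells (SD, n = 3 each).

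Of 9 genes of PDGF ligands and related receptors 8 were tested, with 3 higher and 5 lower, or 2 and 5 with median scaling, and a median log2 fold change of -0.68. Pdgfrb and the ligand genes Pdgfc and Pdgfd were lower, with -1.56, -0.95 and -0.93, as was Kitl, the ligand gene of the Kit receptor, with -1.32. Pdgfd and Kitl passed the filter only through their WT level and so had to differ. Pdgfa, the ligand gene for the alpha receptor, had 43.7 ± 0.961 FPKM in p53-deficient cells and 27.3 ± 0.659 FPKM in WT cells (SD, n = 3 each). Pdgfa was thus higher in the libraries in which Pdgfra was lower, and bulk RNA does not show whether the same cells made both. Fibroblast markers, of which Pdgfrb is one, were lower in the same libraries, and their part was not tested.

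Primitive endoderm secretes basement membrane in quantity. Of 20 genes of it 19 were tested, 14 lower and 3 higher, or 16 and 2 under each scaling alternative, beside 31.3% lower and 35.3% higher over all tested genes, with a median log2 fold change of -0.86. Col4a2 and Col4a1, genes of type IV collagen chains, had log2 fold changes of -2.61 and -2.34. The collagen chaperone gene Serpinh1 and the prolyl hydroxylase gene P4ha2 had -2.28 and -2.13. Dag1, the dystroglycan gene, had 36.2 to 39.1 FPKM in p53-deficient libraries and 39.3 to 40.5 FPKM in WT libraries and did not pass. Lama1, a laminin chain gene of the embryonic basement membrane, rose by 0.36, while Lamb1 had -0.83 and Lamc1 -0.15. Fibroblasts also make these collagens, and the fibroblast markers were lower in the same libraries, but their part was not tested.

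Genes that act with amnionless and disabled-2 in endocytosis were split. Of 19 genes 18 were tested, 4 higher and 10 lower, or 2 and 11 with median scaling, with a median log2 fold change of -0.13. Lrp1, an endocytic receptor gene that fibroblasts express strongly, had a log2 fold change of -2.69, the transcobalamin gene Tcn2 -1.48 and the megalin gene Lrp2 -0.94. The part of fibroblasts in these levels was not tested. The adaptor gene Ap2m1 had 68.3 ± 3.47 FPKM in p53-deficient cells and 67.0 ± 1.92 FPKM in WT cells without passing (SD, n = 3 each). Cubn, the partner of Amn, was under the filter at 0.0351 ± 0.00656 FPKM in p53-deficient cells and 0.0684 ± 0.0154 FPKM in WT cells.

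Among 23 relatives and cofactors of the GATA, SOX and FOXA factors, 15 were tested, with 4 higher and 5 lower and a median log2 fold change of -0.06. With median scaling 4 were higher and 7 lower. Klf5 and Eomes, factors of the early embryo, rose by 0.80 and 0.68, while Sox4 and Hhex had -1.22 and -0.73. Sox2 had 173 ± 7.09 FPKM in p53-deficient cells and 182 ± 2.84 FPKM in WT cells and did not pass (SD, n = 3 each). Gata1, Gata2 and Gata3 were at 1.21 to 2.53 FPKM in every library and none was called, and Gata5 averaged 0.00577 FPKM in p53-deficient cells and 0.00516 FPKM in WT cells. Foxa1 averaged 0.0286 FPKM in p53-deficient cells and 0.128 FPKM in WT cells.

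Of 50 genes of mature visceral and parietal endoderm, 25 were under the filter, among them Ttr, Apob and Ihh, and Apoc2 and Fgb were listed at 0 in all libraries. Of the 25 tested, 6 were higher and 12 lower, or 6 and 15 with median scaling, with a median log2 fold change of -0.22. Among the lower ones, Ctsh and Pga5 passed the filter only through their WT level and so had to differ. Spink1, a secreted protease inhibitor gene, had 12.9 ± 1.38 FPKM in p53-deficient cells and 2.20 ± 0.485 FPKM in WT cells, and Apom, an apolipoprotein gene, had 23.0 ± 0.312 FPKM in p53-deficient cells and 5.71 ± 0.0899 FPKM in WT cells (SD, n = 3 each). Epas1 and Plat, the gene of tissue plasminogen activator made by parietal endoderm, were lower, Epas1 with a log2 fold change of -1.55 and Plat with 0.702 FPKM in p53-deficient cells and 3.06 FPKM in WT cells. Apoe had 199 ± 8.07 FPKM in p53-deficient cells and 201 ± 4.51 FPKM in WT cells and did not pass.

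Of 18 genes of the thrombomodulin pathway and coagulation 12 were tested, 8 lower and 4 higher, or 8 and 3 with median scaling, with a median log2 fold change of -1.03. Among the lower ones, Tfpi2 passed the filter only through its WT level and so had to differ. The protein C receptor gene Procr, which acts beside thrombomodulin, had 0.792 ± 0.116 FPKM in p53-deficient cells and 4.71 ± 0.513 FPKM in WT cells (SD, n = 3 each). The protease inhibitor gene Serpine2 had a log2 fold change of -2.29, and the urokinase receptor gene Plaur rose by 1.51. Fibroblasts make several of these, and their markers were lower in the same libraries, but their part was not tested.

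**Figure D4:**
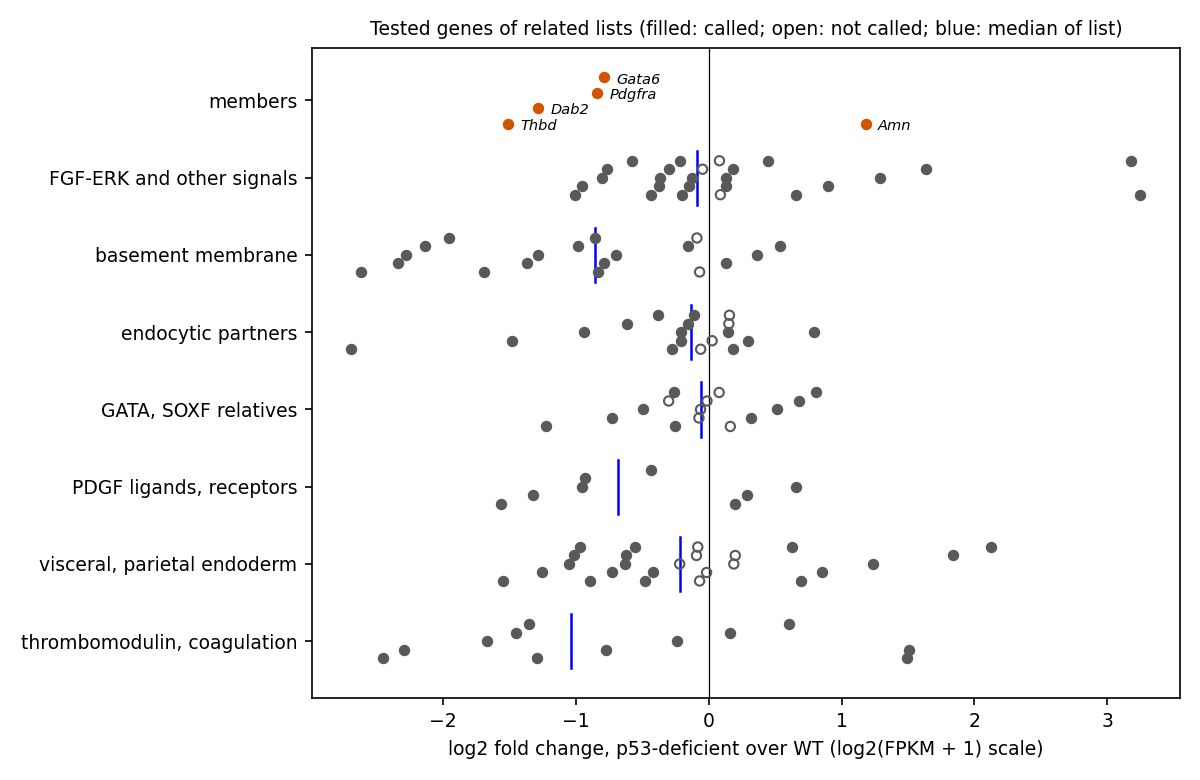
Log2 fold change (p53-deficient over WT, log2(FPKM + 1) scale) of the tested members and of the tested genes in 7 related lists, filled where called and open where not, with a blue line at each related list's median. The coagulation and basement membrane lists have the lowest medians, at -1.03 and -0.86, and the signalling list holds the highest single values, Bmp4 at 3.25 and Spry4 at 3.18.

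By chromosomal position, the tested neighbours of the members lay on both sides of 0. Traf3 and Cdc42bpb, 3.94 and 16.6 kb from Amn, had log2 fold changes of 0.15 and -0.23, and of 35 other tested genes starting within 1000 kb of the start of Amn 13 were higher and 17 lower. Pinx1, 23.8 kb from Sox7, rose by 0.78. Kit, 377 kb from Pdgfra and also a receptor gene, had 0.29, while Chic2 on its other side had 0.19. Around Gata6, Mib1 and Rbbp8 had 0.13 and 0.15. Thbd is the nearest tested gene above Foxa2, 358 kb away, and Nxt1, 264 kb from Thbd, rose by 0.33. Fyb, an adaptor gene of blood cells 82.1 kb from Dab2, was lower like Dab2, with -2.15. The nearest tested genes on the other side of Dab2 and of Foxa2 were far off. These were Ttc33, 1081.5 kb from Dab2, with 0.39, and Xrn2, 965 kb from Foxa2, with 0.32. Neil2, 5.07 kb from Gata4, had -0.30, and Fam167a, Msra and Mrpl15, beside Gata4, Sox7 and Sox17, did not pass. Fyb and Neil2 passed the filter only through their WT level and so had to differ.

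**Figure D5:**
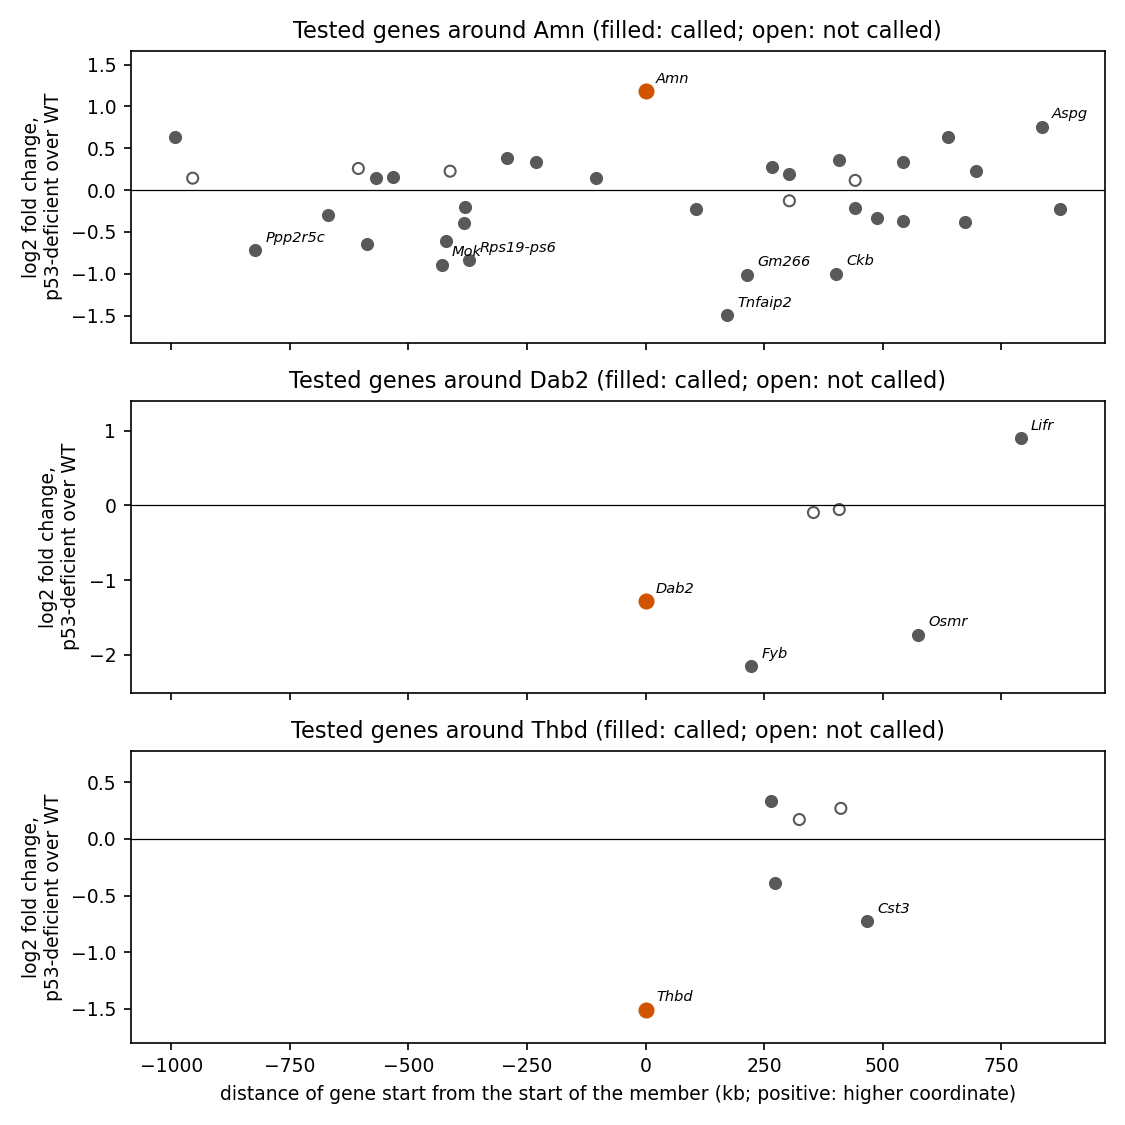
Log2 fold change (p53-deficient over WT, log2(FPKM + 1) scale) of tested genes by the distance of their start from the start of Amn, Dab2 or Thbd (orange), within 1000 kb, filled where called and open where not. Genes around Amn lie on both sides of 0, whereas near Dab2 the genes Fyb and Osmr are also lower and Lifr is higher.

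The protein-coding genes most like Thbd over the 6 libraries, by the root mean square difference of centred log2(FPKM + 1), were Hyal1 (0.0465), Bst1 (0.0506) and Epb41l3 (0.0507). Those most like Dab2 were Akr1b10 (0.0370), Man2b2 (0.0438) and Atp9a (0.0441). Akr1b10, for example, had 1.04, 0.734 and 1.04 FPKM in p53-deficient libraries and 3.65, 3.52 and 3.41 FPKM in WT libraries, with the same dip in p53-deficient replicate 2. The likeness rests on 6 libraries of 2 groups and is a description.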

How the data were processed

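Poly(A) RNA was measured in 6 libraries, 3 p53-deficient and 3 WT. The authors deposited FPKM per gene, and the deposited table also gives gene length. HISAT2 2.0.5, featureCounts 1.5.0-p3 and build mm10 are named, with no role, per the submitters' processing notes. The library kit named in the labels is not stated to mark strand. FPKM times length gave whole multiples of 1 read for 100% of values above 0 (tolerance 0.01), so reads were rebuilt.

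The members and all lists were chosen with earlier results of these data known. The test was limma 3.58.1 (R 4.3.3), two-sided with a variance trend, on log2(FPKM + 1) over the 15144 genes of mean FPKM at least 0.5. A gene was called at a Benjamini-Hochberg adjusted p under 0.05, and errors are SD over 3 libraries. The text names the 9 members, Trp53, the nearest tested protein-coding neighbours, the 3 genes most like each of 2 members, and from each related list up to 4 called genes of largest change and the most abundant gene that did not pass, with Col1a1, Thy1, Pecam1, Cdh5, Pou5f1 and the Y-linked sum as set markers; a few genes this rule gives are not reported here. Other genes (Nanog, Fgf4, Fgfr1, Fgfr2, Pdgfa, Lama1, Lamb1, Lamc1, Cubn, Ttr, Apob, Ihh, Gata1, Gata2, Gata3, Gata5, Foxa1, Emcn, Osmr, Lifr, Twist2, Ctsh, Pga5, Tfpi2) were named after their values were seen. Intervals are exact binomial at 95%. Exon overlap came from GENCODE M21, in which 98.3% of shared genes had the deposited coordinates. Among the members 8 had them, while Gata6 starts there at 11052064, against 11052508 as deposited. Opposite-strand genes also covered 2.87% of the Dab2 exon length and 1.43% of that of Gata6. They averaged 0 and 0.00533 FPKM over the 6 libraries. BLAST+ 2.17.0 found no copy of a member at 95% identity over 100 bases, apart from the opposite-strand transcript at Sox17. RefSeq start regions were matched for 4 members (Amn, Dab2, Pdgfra and Foxa2), of which Foxa2's are not used. Figures were drawn with matplotlib 3.10.9.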

Additional observations from a re-analysis of the deposited data

How the results depend on the processing

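With median scaling or quantile normalization, a pseudocount of 0.1, an untrended variance or voom on rebuilt reads, and with each library left out in turn, 4 members were called lower and 1 higher, as in the fit reported. The fold changes of all 5 tested members kept their direction and call under every setting that tested them. They ranged from -2.85 to -1.39 for Thbd, -2.25 to -1.16 for Dab2, -2.27 to -0.72 for Pdgfra, -2.73 to -0.68 for Gata6 and 1.00 to 2.18 for Amn, and the highest adjusted p for Amn was 0.00282. Thbd, Pdgfra and Gata6 passed the filter of 0.5 FPKM only through their WT level, so for them the settings that keep it give a description. With a mean FPKM of at least 1, 3 members were called, 2 of them lower, since fewer were tested. Of these, Thbd and Dab2 passed only through their WT level and Amn only through its p53-deficient level. Over the whole table that setting called 9033 genes, 4970 higher and 4063 lower. Without a filter, and in voom over genes of at least 10 reads (added after the data were seen), 2 members were called higher, Sox7 joining Amn, and 5 lower, Gata4 joining the others. Of all genes in each fit, 17% were higher and 17.5% lower without a filter, and 27.6% and 30.3% in that voom fit. Endocytic partner genes called higher numbered 2 with median scaling. Over the whole table, 5341 genes were higher and 4733 lower, or 4296 and 5584 with median scaling (median of all genes -0.05, against 0.03), and 5553 and 4516 after quantile normalization.

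The replicate numbers share no stated source, and same-numbered libraries had correlations of -0.0328, 0.0142 and 0.00556 in their deviations across genes. Not every library correlated best with its own number. With the replicate block, 5 members and 9766 genes were called, against 5 and 10074 without it. Depth limits Sox17 and Foxa2, whose libraries held 0 to 14 reads.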

Other observations

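A few genes outside the members, chosen after their values were seen, differed within the same lists. Afp, the alpha-fetoprotein gene of visceral endoderm, had 0.903, 0.925 and 0.656 FPKM in p53-deficient libraries, against 0.0172, 0.0904 and 0.0577 FPKM in WT libraries, with 139 and 11 reads in all (voom over genes of at least 10 reads, log2 fold change 3.85, SE 0.513, adjusted p = 3.25e-07). The transferrin gene Trf had 64 reads in p53-deficient and 2 in WT libraries, a depth-adjusted ratio of 36.7 with an interval of 9.75 to 309. Hnf4a, which encodes a nuclear receptor of visceral endoderm, went the other way, with 0.128, 0.161 and 0.129 FPKM in p53-deficient libraries and 0.564, 0.515 and 0.604 FPKM in WT libraries (voom adjusted p = 1.51e-06).

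Fyb, beside Dab2, had 14 reads in p53-deficient and 1154 in WT libraries (0.0543 ± 0.0164 and 3.70 ± 0.351 FPKM; SD, n = 3 each). Its depth-adjusted read ratio was 0.0139 with an interval of 0.00758 to 0.0234. Osmr, 575 kb from the start of Dab2, had 157 reads in p53-deficient and 2235 in WT libraries, a read ratio of 0.0805.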
